A study of Mus musculus with 12 samples.

Results

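The insulin-like growth factor (IGF) genes described here are 10 of the 18193 mouse genes that had a microarray feature with a single gene symbol. They were taken by name from a fixed list: the ligands Igf1 and Igf2, the receptors Igf1r and Igf2r, and the binding proteins Igfbp2, Igfbp3, Igfbp4, Igfbp5, Igfbp6 and Igfbp7. The array carries 28 probe sets for them, from 1 for Igfbp2 and Igfbp6 to 6 for Igfbp4, and 1 further probe set that carries Igf2r together with the antisense gene Airn was left out. All 28 passed the filter on dim probe sets, and 27 of them lay above the median of the array on all 12 arrays; the other, 1 of the 5 for Igf1r, did so on 4. For each gene the probe set of highest mean was used, and all 10 genes were among the 12516 tested.

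The 12 arrays come from 3 osteoprogenitor populations named SSC, CSP and Thy in the labels (BCSP and Thy+ in the design text), sorted by flow cytometry from long bones, calotte, shoulder blade, backbone and ribs of JUN-inducible mice. JUN, a subunit of the transcription factor AP-1, was induced in the young by doxycycline in the mother's drinking water, and cells were taken after 2 days. Of the 4 arrays per population, 2 carry the label JUN and 2 the label -JUN, which is read here as without induction. All groups share the JUN-inducible genotype as far as the labels say; the sources used here do not give the strain, the age, the promoter that drives JUN, or whether the -JUN litters received doxycycline. The titles name 5 mice. Mice 4 and 7 gave the JUN arrays of all populations. Mouse 3 gave -JUN replicate 1 of all populations, mouse 3b -JUN replicate 2 of CSP and Thy, and mouse 10 -JUN replicate 3 of SSC. The titles of 3 of the 4 SSC arrays, those of mice 3, 7 and 10, carry a date, and the rest carry none. Whether an equal mouse number means the same animal is thus not settled by the labels. The spiked poly-A controls averaged 8.43, 9.92 and 9.10 in these arrays, 11.20 in the undated SSC array and 9.91 to 12.23 in CSP and Thy. What the date stands for is not stated. If it marks a separate run, a difference of the 3 dated SSC arrays from CSP or Thy cannot be told apart from it. The array of mouse 4, SSC JUN replicate 1, is the only SSC array free of the date. P-values measure the spread between these arrays, which are few: 4 against 4 between populations and 2 against 2 for JUN within one. For JUN averaged over the populations, all JUN arrays carry the mouse numbers 4 and 7. The main fit has no mouse term and counts each array on its own. The SE, interval and p-value of an average thus treat up to 3 arrays of 1 mouse number as replicates of the induction.

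Some facts of the arrays touch every result. Array medians lay between 7.65 and 7.76 log2 units. Thy1, the antigen the name Thy points to, read 12.80 to 13.30 in the Thy arrays and 7.28 to 9.63 elsewhere, and Ptprc, the leukocyte antigen CD45, lay below the array median on all 12. Jun itself read 12.13 to 13.18 in the arrays labelled JUN and 12.06 to 13.65 in those labelled -JUN, so the labels' arms did not separate by the gene to be induced; the sources used here do not say which copy of Jun the probe set reads. Xist, the RNA that coats the silenced X, stood at 12.49 to 13.20 in the 3 arrays of mouse 3 and at 6.11 to 7.29 in the remaining arrays, which puts that mouse in the opposite sex to the others. The mean of 10 chondrocyte markers was 13.20 to 13.32 in SSC JUN replicate 1, CSP -JUN replicate 2 and CSP JUN replicate 1 and 8.42 to 10.77 in the other arrays.

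IGF1 and IGF2 are secreted growth factors that act through the receptor tyrosine kinase IGF1R, which signals through insulin receptor substrates to the PI3K-AKT and MAP kinase pathways. IGF2R, which is also the mannose 6-phosphate receptor, takes up IGF2 and sends it to the lysosome. The binding proteins hold the ligands outside the cell, extend their life and limit or present them to the receptor, and proteases such as PAPP-A cut some of them and release the ligand. Bone matrix is rich in stored IGFs, and cells of the osteoblast and chondrocyte lineages make ligands, receptors and binding proteins.

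JUN, the factor induced in this study, binds AP-1 sites, so the DNA just upstream of the members' start sites was searched. The windows were the 250 bases before each annotated start in RefSeq (mouse build GRCm38.p6); all 10 genes had at least 1 window, 14 in all. The AP-1 motif TGANTCA, which reads the same on both strands, was found in 2 of the 14 windows, those of Igf1 and of the second start of Igfbp2, and in 6.75% of all 32851 windows of that length. The cAMP response element TGACGTCA was in none of the 14 and in 1.55% of all. TATAAA, searched on both strands, was in the windows of Igfbp4 and Igfbp6 and in 12.4% of all, and CCAAT on either strand was in windows of Igf1, Igf2 and Igfbp6 and in 33.8% of all. The motifs do not overlap one another by their letters. A match is a description of the letters and shows no binding. The first pair of sequences holds the AP-1 matches in capitals: the Igf1 window at chr10:87860861-87861110, plus strand, where the match begins 37 bases before the start site and the window lies inside the gene's longest annotated range, and 27 bases around the Igfbp2 match at chr1:72825338-72825364, plus strand, 39 bases before its second start.
Igf1: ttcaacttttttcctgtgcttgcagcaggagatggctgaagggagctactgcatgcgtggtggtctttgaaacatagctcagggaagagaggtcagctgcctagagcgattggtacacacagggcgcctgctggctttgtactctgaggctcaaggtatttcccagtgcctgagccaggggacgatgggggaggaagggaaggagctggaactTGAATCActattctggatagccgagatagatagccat
Igfbp2: aaacaaaactTGAGTCAgtgaccaccg
The second pair belongs to the genes with the widest differences between the populations. These are Igfbp5 at chr1:72874866-72875115, minus strand, in which none of the 4 motifs was found, and Igfbp6 at chr15:102143936-102144185, plus strand, with TATAAA as read on the other strand (TTTATA) and 2 CCAAT matches in capitals, 148, 107 and 50 bases before the start.
Igfbp5: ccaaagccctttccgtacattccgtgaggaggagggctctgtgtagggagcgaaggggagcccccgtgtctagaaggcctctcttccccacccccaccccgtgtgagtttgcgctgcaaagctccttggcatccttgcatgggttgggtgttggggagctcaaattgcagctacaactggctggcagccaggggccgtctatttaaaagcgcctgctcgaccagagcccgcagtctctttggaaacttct
Igfbp6: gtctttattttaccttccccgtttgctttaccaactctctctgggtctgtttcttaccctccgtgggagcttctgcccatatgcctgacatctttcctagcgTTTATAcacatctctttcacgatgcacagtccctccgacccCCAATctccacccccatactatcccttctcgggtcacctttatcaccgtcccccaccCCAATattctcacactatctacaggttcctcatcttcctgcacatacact

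All 10 members were measured well above the middle of the arrays in every population, and 0 of them passed the threshold (limma, adjusted p under 0.05 over 12516 genes) in any comparison of populations. Of all genes tested, 0.431% passed for SSC minus CSP, 0.391% for SSC minus Thy and 0.991% for CSP minus Thy. By the probe sets used, the count of members at an unadjusted p under 0.05 was 0 for SSC minus CSP (6.51% of all genes), 3 for SSC minus Thy (17.7%) and 4 for CSP minus Thy (12%). The widest differences were those of Igfbp5 and Igfbp6, which read highest in Thy, and of Igfbp2 and, by the probe set used but not by 3 of its 4 other probe sets against SSC, Igf1r, which read lowest there. All levels and differences are in log2 units of the authors' RMA values, so a difference of 1 is a doubling of the normalised intensity. Levels of different genes come from different probes and are not set against each other. In bulk RNA of a sorted population, fewer cells that make a transcript and less transcript per cell cannot be told apart.

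**Figure D1:**
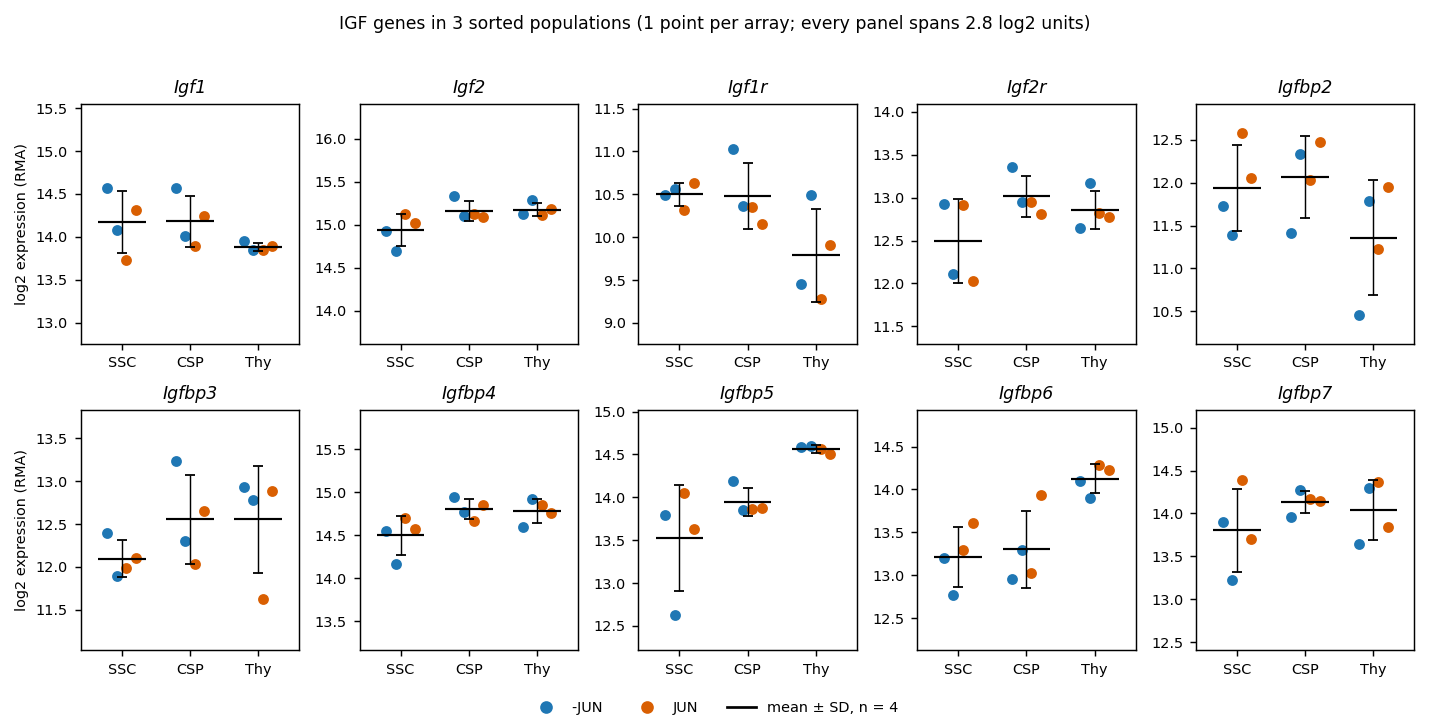
Log2 expression (RMA) of the 10 IGF genes on 12 arrays, 1 panel per gene, each spanning the same number of log2 units; points are arrays (blue -JUN, orange JUN), and the bar and whiskers are the mean ± SD of the 4 arrays of a population. The 4 Thy arrays of Igfbp5 lie between 14.50 and 14.60, above all SSC and CSP arrays, while the arrays of most other genes overlap between the populations.

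Of the ligands, Igf2, the imprinted growth factor of fetal and early postnatal life, was bright and nearly level. It read 14.93 and 14.69 in the SSC -JUN arrays and 15.12 and 15.02 in the SSC JUN arrays, 15.33, 15.10, 15.13 and 15.09 in CSP (-JUN first) and 15.12, 15.28, 15.12 and 15.18 in Thy. The population means were 14.94 ± 0.19 (SD, n = 4) in SSC, 15.16 ± 0.12 in CSP and 15.18 ± 0.08 in Thy. The order SSC, CSP, Thy rests on overlapping arrays, and SSC minus Thy was -0.23 ± 0.17 (SE; 95% interval -0.60 to 0.13; limma adjusted p = 0.465), or -0.15 without SSC -JUN replicate 3. These readings lie close to the top of the table, whose highest value is 15.99, and whether the probes saturate was not tested. The gene's second probe set read lower and separated SSC: 13.83 to 14.31 in SSC against 14.38 to 14.49 in CSP and 14.49 to 14.65 in Thy. SSC minus Thy was -0.43 there (unadjusted p = 0.0298; adjusted p = 0.240 over 23034 probe sets).

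Igf1, the ligand that growth hormone drives, had its highest readings in mouse 3, at 14.57 in both the SSC and the CSP array of that mouse. The probe set used read 14.57 and 14.07 (-JUN) and 13.73 and 14.31 (JUN) in SSC, 14.57 and 14.01 and then 13.90 and 14.24 in CSP, and 13.95, 13.85, 13.85 and 13.90 in Thy. The Thy arrays span only 13.85 to 13.95 and lie inside the range of SSC. SSC minus Thy was 0.29 ± 0.21 (adjusted p = 0.477), CSP minus Thy 0.30 ± 0.21 (adjusted p = 0.592) and SSC minus CSP -0.01 (95% interval -0.47 to 0.45). Without mouse 3 the first was 0.17 and the next 0.19. None of the population orders of Igf1 exceeded the spread between arrays.

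The signalling receptor Igf1r read lowest in Thy by the probe set used. It stood at 10.49, 10.56, 10.32 and 10.63 in SSC, at 11.03, 10.37, 10.36 and 10.16 in CSP and at 9.45, 10.50, 9.28 and 9.91 in Thy, each with the -JUN arrays first. Of the Thy arrays, -JUN replicate 2 reached the level of the other populations and the other 3 lay below them all. SSC minus Thy was 0.71 ± 0.26 (1.64-fold; unadjusted p = 0.0182; limma adjusted p = 0.204), CSP minus Thy was 0.69 ± 0.26 (adjusted p = 0.320), and SSC minus CSP 0.02 (95% interval -0.55 to 0.59). With the other Igf1r probe sets SSC minus Thy was -0.34, -0.32, -0.07 and 0.51, and the correlation of the probe set used with each over the 12 arrays was 0.10 to 0.51. The direction of SSC minus Thy therefore turns with the probe set. CSP minus Thy kept its direction but was smaller with the other probe sets, at 0.15 to 0.37 (limma unadjusted p = 0.208 to 0.786). SSC minus CSP was -0.51, -0.22, 0.13 and -0.59 with them, so its direction also turns with the probe set.

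Igf2r, the clearance receptor, read lowest in SSC, where the arrays split: 12.93 and 12.91 in replicate 1 of each arm against 12.11 and 12.03 in the others. It read 12.81 to 13.36 in CSP and 12.65 to 13.17 in Thy. SSC minus CSP was -0.52 ± 0.25, the lowest p of any member in that comparison by the probe sets used (unadjusted 0.0585, limma adjusted p = 0.793). The second Igf2r probe set followed the first (correlation 0.915 over 12 arrays) and gave -0.33, and without CSP -JUN replicate 1 the first gave -0.26.

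Igfbp5, a binding protein that attaches to extracellular matrix and is abundant in bone, had the widest population difference of the members. In SSC it read 13.79 and 12.63 in the -JUN arrays and 14.05 and 13.63 in the JUN arrays; in CSP it read 14.19, 13.85, 13.86 and 13.87, and in Thy 14.58, 14.60, 14.57 and 14.50. All 4 Thy arrays lay above all 8 others, and their spread (SD 0.04) was narrower than that of SSC (SD 0.62). SSC minus Thy was -1.04 ± 0.27 (2.05-fold; 95% interval -1.62 to -0.46; unadjusted p = 0.00210; limma adjusted p = 0.110). CSP minus Thy was -0.62 ± 0.27 (unadjusted p = 0.0378; adjusted p = 0.389), and SSC minus CSP was -0.42 ± 0.27 (adjusted p = 0.899), with overlapping arrays; this last value was -0.11 without SSC -JUN replicate 3 and -0.04 with the second probe set. The second Igfbp5 probe set had the same order between Thy and the others: 14.05 to 14.26 in Thy, 13.49 to 13.81 in CSP and 13.09 to 13.82 in SSC. It gave -0.59 (unadjusted p = 0.0135) and -0.55 (unadjusted p = 0.0192) against Thy, both without overlap of the arrays. Without SSC JUN replicate 1 the main probe set gave -1.21 and passed (adjusted p = 0.0440), the single alternative that brought a member past the threshold in the population comparisons. The array left out there is the only SSC array without a date. That setting thus sets dated SSC arrays alone against undated Thy arrays, and population and date cannot be told apart in it. Without SSC -JUN replicate 3, the lowest array, SSC minus Thy was -0.73 (adjusted p = 0.240), and with the mouse as a fixed replicate block -0.75 (adjusted p = 0.284).

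Igfbp6, a binding protein that prefers IGF2 over IGF1, also read highest in Thy. It stood at 13.20, 12.77, 13.29 and 13.61 in SSC, at 12.95, 13.30, 13.02 and 13.94 in CSP and at 14.10, 13.90, 14.28 and 14.22 in Thy, -JUN arrays first. Thy lay above every SSC array, and 1 CSP array, JUN replicate 2, reached into the Thy range. SSC minus Thy was -0.91 ± 0.22 (1.88-fold; 95% interval -1.39 to -0.43; unadjusted p = 0.00146; limma adjusted p = 0.0989), the lowest p of the members in any comparison. CSP minus Thy was -0.82 ± 0.22 (unadjusted p = 0.00294; adjusted p = 0.138), and SSC minus CSP was -0.09 (95% interval -0.57 to 0.40). By the probe sets used, Igfbp5 and Igfbp6 were the 2 members whose SSC and Thy arrays did not overlap, which held for 7.59% of all genes. Of CSP against Thy this held for Igfbp5 alone (6.11% of all genes), and of SSC against CSP for 0 members (4.06%). The second Igf2 probe set did not overlap in any of these comparisons. Some other Igfbp4 probe sets did not overlap between SSC and CSP. The shares over all genes do not cover such further probe sets.

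Other measures moved with the Thy arrays in which Igfbp5 and Igfbp6 were high. The mean of 7 pericyte and smooth muscle markers was 11.52 to 12.17 in Thy, 10.24 to 10.69 in CSP and 10.68 to 11.53 in SSC, and of the 7 markers, 5 read lower in SSC and 6 lower in CSP than in Thy. The members of this list did not move alike between SSC and Thy: SSC minus Thy was -3.24 for the pericyte gene Rgs5 and -1.72 for Notch3, which passed (limma adjusted p = 0.000300 and 0.0379), against -0.06 for Acta2, 0.25 for Tagln and 0.54 for Myh11, which did not. For CSP minus Thy 4 of the 7 passed: Rgs5 (-2.66, limma adjusted p = 0.00132), Mcam (-1.95, 0.00863), Acta2 (-1.16, 0.0274) and Notch3 (-1.42, 0.0429). Tagln (-0.83), Myh11 (-1.54) and Cspg4 (0.12) did not pass there. The mean of 9 fibroblast and tendon markers was 12.52 to 12.74 in Thy, 12.34 to 12.51 in CSP and 12.08 to 12.35 in SSC. The spiked poly-A controls of the array averaged 11.28 to 12.23 in Thy, 9.91 to 11.73 in CSP and 8.43 to 11.20 in SSC. The mean of the 10 chondrocyte markers was 8.42 to 9.83 in Thy, 9.75 to 13.32 in SSC and 9.78 to 13.32 in CSP; each of the 10 had a higher population mean in SSC and in CSP than in Thy, with 0 past the threshold. Single markers of other lists passed in limma. SSC minus Thy was -1.61 for the endothelial gene Esam (adjusted p = 0.0379), -2.17 for the fibroblast gene Pi16 (0.0447) and 2.42 for the adipocyte gene Adipoq (0.0296). CSP minus Thy was -1.67 for Esam (limma adjusted p = 0.0142), -2.79 for Pi16 (0.00727), 1.18 for the tendon gene Tnmd (0.00816), and -3.06 and -2.88 for the Schwann cell genes Sox10 (0.00272) and Mbp (0.0217). Their lists were split between CSP and Thy. Higher in CSP were 4 of 7 endothelial, 5 of 9 fibroblast and tendon and 2 of 4 Schwann cell markers, and the rest were lower. The part of these markers and controls in the Igfbp5 and Igfbp6 differences was not tested. The mean of 11 leukocyte markers was 6.46 to 7.02 on all arrays, with 6 of the 11, Ptprc among them, below the array median everywhere.

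Igfbp2, which is expressed in fetal and regenerating tissue and binds both ligands, went the other way. It read 11.72, 11.40, 12.58 and 12.05 in SSC, 11.41, 12.34, 12.03 and 12.48 in CSP, and 10.46, 11.79, 11.23 and 11.95 in Thy. All populations overlap, and in CSP and Thy the lowest array is that of mouse 3. CSP minus Thy was 0.71 ± 0.32 (1.63-fold; unadjusted p = 0.0469; limma adjusted p = 0.417) and SSC minus Thy 0.58 ± 0.32 (adjusted p = 0.353). Without Thy -JUN replicate 1, the lowest array, they were 0.47 and 0.34.

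The other binding proteins had overlapping arrays in every comparison of populations by the probe sets used. Igfbp3, the main carrier of IGFs in blood, read 11.90 to 12.40 in SSC, 12.03 to 13.23 in CSP and 11.63 to 12.93 in Thy, and SSC minus Thy was -0.46 ± 0.30 (adjusted p = 0.432). That value ran from -0.74 without Thy JUN replicate 1 to -0.26 without Thy JUN replicate 2, and the second Igfbp3 probe set gave -0.02. Igfbp4, whose hold on IGFs PAPP-A releases, read 14.17 to 14.70 in SSC, 14.67 to 14.95 in CSP and 14.60 to 14.92 in Thy. SSC minus CSP was -0.31 ± 0.18 (adjusted p = 0.875), SSC minus Thy was -0.28 ± 0.18 (adjusted p = 0.409) and CSP minus Thy was 0.02 (95% interval -0.37 to 0.41); its 5 other probe sets gave -0.21 to 0.15 for the last. Without SSC -JUN replicate 3 the first 2 values were -0.20 and -0.17. For SSC minus CSP the 5 other Igfbp4 probe sets gave -0.43 to -0.02. With those at -0.43 (limma unadjusted p = 0.0384; adjusted p = 0.717) and -0.24, all SSC arrays lay below all CSP arrays. Igfbp7, a secreted relative of the family with low affinity for IGFs, read 13.22 to 14.39 in SSC, 13.96 to 14.27 in CSP and 13.65 to 14.36 in Thy. Its differences lay between -0.33, for SSC minus CSP, and 0.10, for CSP minus Thy. With both other probe sets SSC minus Thy was 0.20. The dimmest of its probe sets gave 0.20 for SSC minus CSP and -0.004 for CSP minus Thy. In SSC, -JUN replicate 3 was the lowest of the 4 arrays for Igf2, Igfbp2, Igfbp3, Igfbp4, Igfbp5, Igfbp6 and Igfbp7.

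**Figure D2:**
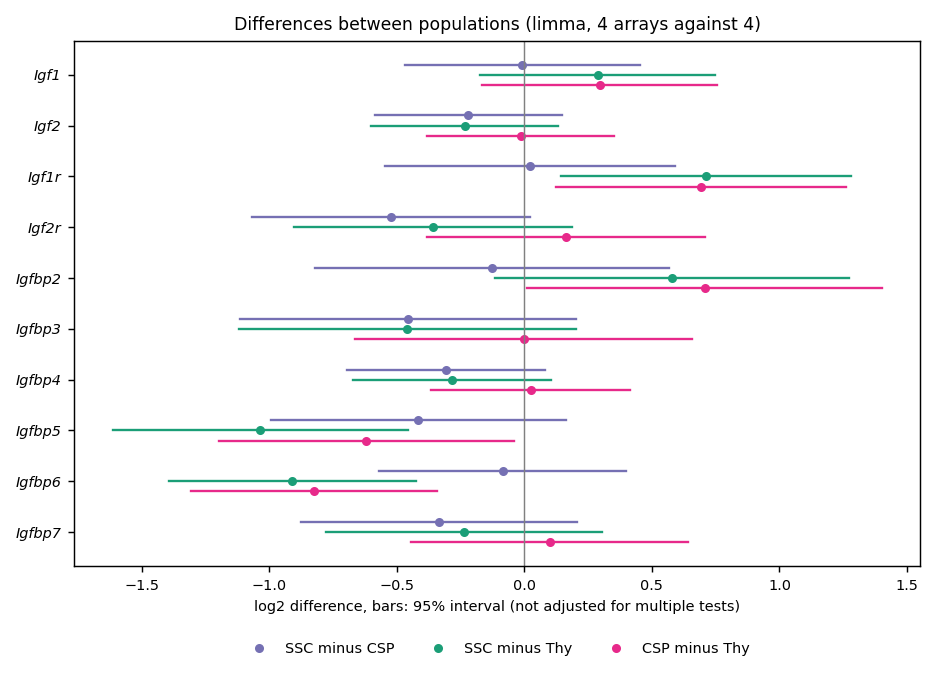
Differences between populations for the 10 genes in log2 units (x axis), with the 95% interval of the limma fit, not adjusted for multiple tests; violet is SSC minus CSP, green SSC minus Thy and pink CSP minus Thy. The intervals of Igfbp5, Igfbp6 and Igf1r against Thy lie to one side of 0, and that of Igfbp2 for CSP minus Thy just clears it at 0.01.

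By counts and medians the members lay as follows beside all genes. For SSC minus CSP the median difference was -0.26, with 1 member higher and 9 lower in SSC, against a median of -0.05 over all genes, of which 42.2% were higher. For SSC minus Thy the median was -0.26 (3 higher and 7 lower in SSC) against -0.09, with 42.3% of all genes higher, and for CSP minus Thy it was 0.06 (6 higher and 4 lower in CSP) against -0.04, with 45.4% of all genes higher. Over the 12 arrays the log2 values of Igf2 and Igfbp4 correlated at 0.92, those of Igf2 and Igfbp5 at 0.83, those of Igfbp5 and Igfbp6 at 0.72 and those of Igf1r and Igfbp6 at -0.76. These points share populations and mice, and the values are descriptions. Among all genes tested, the closest to Igfbp5 over the arrays were Actg1, a cytoplasmic actin (r = 0.978), Kank2 (0.970) and Csnk1e, a casein kinase (0.956). The closest to Igfbp6 were Dbn1, an actin-binding protein (r = 0.980), Dpp3, a dipeptidyl peptidase (0.969), and Jpt1 (0.966).

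For the effect of JUN, 0 members passed the threshold in limma in any population, on average over the 3, or for a difference of the effect between populations, and the share of all genes that passed was 0% in each of these 5 tests. By the probe sets used, 0 members stood out at an unadjusted p under 0.05 in SSC (6.5% of all genes), CSP (2.3%), Thy (3.04%), on average (12.5%) or between populations (1.15%). Among the other probe sets, one for Igf1r did so in CSP (-1.63; limma unadjusted p = 0.0494; adjusted p = 0.995), and some for Igf1 did so on average, as given below. The adjusted p for a difference of the effect between populations was 0.9997 for all 10 members, and the lowest unadjusted p was that of Igfbp5 (0.314). By the probe sets used, Igfbp2, Igfbp6 and Igfbp7 read higher under the JUN label in each population, and Igf1, Igf1r, Igf2r and Igfbp3 read lower in each. The share of all genes with the same direction in each population was not computed. Other probe sets turn the direction for Igf1r in SSC (0.16 to 1.01 with the other 4) and in Thy (0.15, 0.12 and 0.03 with 3 of them), and for Igfbp3 in Thy (0.16 with the second). They also turn it for Igf2r in SSC (0.21) and for Igfbp7 in CSP (-0.63).

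Averaged over the populations, Igfbp2 stood at 12.05 with the JUN label and 11.52 without, a difference of 0.53 ± 0.28 (95% interval -0.10 to 1.16; unadjusted p = 0.0888; limma adjusted p = 0.415). Here and in the averages below, the arrays of a mouse are counted as separate. In SSC the JUN arrays read 12.58 and 12.05 and the -JUN arrays 11.72 and 11.40, a difference of 0.76 ± 0.49 (adjusted p = 0.690). In CSP and Thy, where the arrays of the arms overlapped, the differences were 0.38 and 0.46. Without mouse 3, whose CSP and Thy readings are the lowest of their populations, the average was 0.21, and without SSC JUN replicate 1 the SSC value was 0.49.

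Igfbp6 differed by 0.36 ± 0.20 on average (limma adjusted p = 0.424), with 0.47 in SSC, 0.36 in CSP and 0.25 in Thy. The average was 0.21 without CSP JUN replicate 2 and 0.16 without mouse 7, and the SSC value was 0.26 without SSC -JUN replicate 3. The other direction was read for Igfbp3, at -0.37 ± 0.27 (adjusted p = 0.494), which came to -0.16 without Thy JUN replicate 1 and to -0.04 without mouse 4. Igf1r gave -0.29 ± 0.23 (adjusted p = 0.535) with the probe set used, and its other probe sets gave 0.30, 0.26, 0.19 and -0.62. Igfbp5 in SSC differed by 0.63 ± 0.38 (adjusted p = 0.690), and by 0.05 without SSC -JUN replicate 3, the array that read 12.63. In CSP and Thy its differences were -0.15 and -0.06. Over the 10 members the median JUN difference was 0.27 in SSC, -0.13 in CSP, -0.04 in Thy and 0.06 on average, against 0.08, 0.07, 0.04 and 0.07 over all genes.

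**Figure D3:**
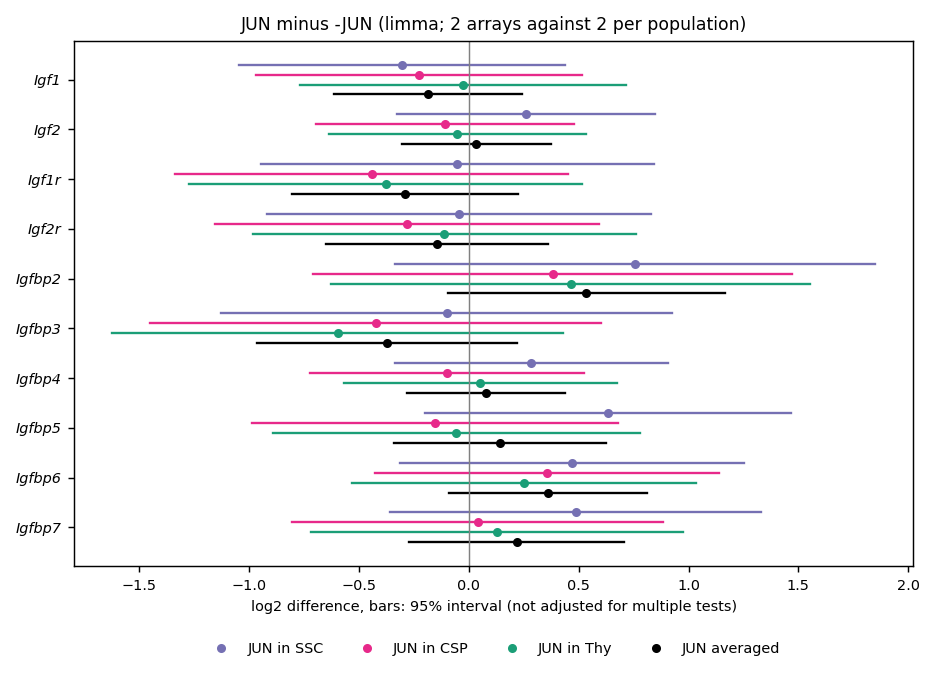
JUN minus -JUN for the 10 genes in log2 units (x axis), with the 95% interval of the limma fit, not adjusted for multiple tests; violet is SSC, pink CSP, green Thy and black the average of the 3. Every interval covers 0, and the average of Igfbp2, at 0.53, is the farthest from it among the averages.

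Igf1 needs its probe sets apart, since the probe set used was the brightest and the least variable of the 4. The other probe sets correlated with one another (r = 0.973 to 0.990 over 12 arrays) and less with it (0.680 to 0.729). The dimmest of them read 12.65 and 13.07 in the SSC -JUN arrays and 9.44 and 12.56 in the SSC JUN arrays. It read 13.66 and 12.46 and then 12.30 and 11.77 in CSP, and 12.02 and 11.92 and then 10.07 and 11.97 in Thy. The low readings are those of mouse 4 in SSC and Thy, while the CSP array of that mouse was not the lowest of its population. The same SSC and Thy arrays were the lowest of their populations by the second-brightest probe set (11.70 and 11.88) and by the next (10.48 and 10.69).

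With these probe sets, from the brightest to the dimmest of the 3, JUN minus -JUN averaged over the populations was -0.72 ± 0.33, -0.92 ± 0.39 and -1.28 ± 0.52 (SE). Their unadjusted p-values in the limma fit were 0.0562, 0.0414 and 0.0336, and each had an adjusted p of 0.419 over 23034 probe sets. That fit counts the arrays of a mouse as separate. The probe set used gave -0.19 ± 0.19 (adjusted p = 0.634). In SSC the differences were -1.09, -1.32 and -1.86 (adjusted p = 0.725 each), and in CSP they were -0.45, -0.76 and -1.02 (adjusted p = 0.995 each). Mouse 4 sets the size: without it the averages were -0.23, -0.40 and -0.53, and without mouse 7, which leaves mouse 4 alone as the JUN arm, they were -1.20, -1.44 and -2.03. The last setting gives adjusted p of 0.0350, 0.0333 and 0.0333, but each JUN group is then 1 array of 1 mouse, the spread comes from the -JUN groups alone, and the lone arrays are assumed to vary like them. In SSC, leaving out mouse 4 gave -0.16, -0.17 and -0.30, in the same order of probe sets; leaving out mouse 7 gave -2.02, -2.47 and -3.42, values that rest on the single array SSC JUN replicate 1 (adjusted p = 0.0519, 0.0479 and 0.0341 under the same assumption). Leaving out SSC JUN replicate 2 alone gave the same 3 SSC values with adjusted p of 0.171, 0.163 and 0.160.

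In the same arrays the mean of 8 markers of adipocytes and CXCL12-abundant reticular cells was low: 9.75 in SSC JUN replicate 1 against 10.77 to 11.33 in the other SSC arrays, and 9.83 in Thy JUN replicate 1 against 10.25 to 10.45 in the other Thy arrays. The markers did not move alike: Lepr (9.29) and Cebpa (10.23) were highest of the Thy arrays in Thy JUN replicate 1. Nor was the dip limited to this list. Of the fibroblast and tendon markers, Pdgfra, Dpt, Dcn and Dpp4 were lowest of their populations in both arrays, while Scx, Thbs4 and Fmod were highest. Cebpa was not the lowest in SSC JUN replicate 1 either. Chondrocyte markers were high in that SSC array (13.32) but also in the CSP array of the same mouse (13.32), where Igf1 was not low, and read 9.59 in its Thy array. The part of these cell types in the Igf1 readings was not tested. The sources used here do not say which transcripts the 4 probe sets cover.

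**Figure D4:**
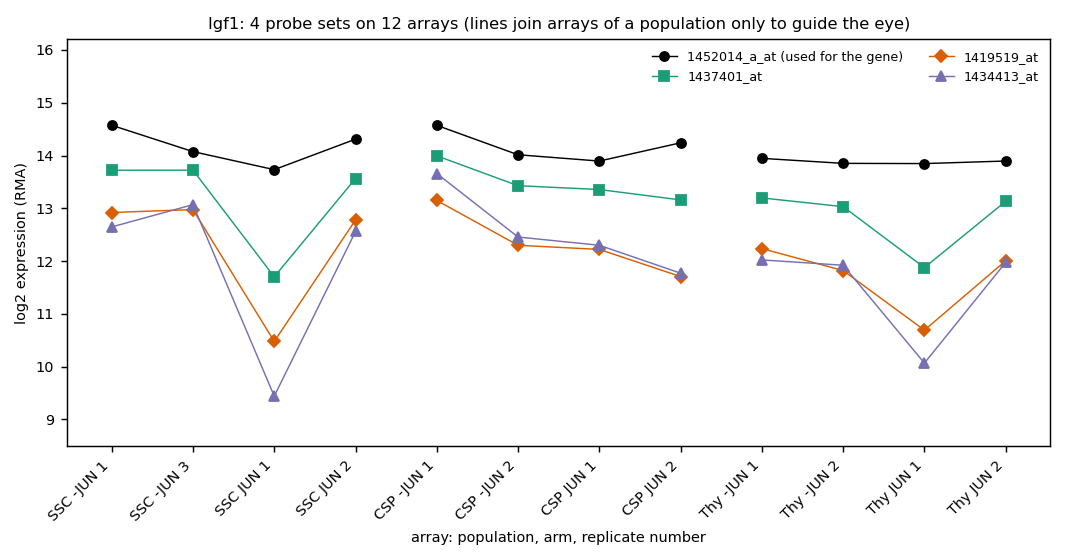
Log2 expression (RMA) of the 4 Igf1 probe sets (colours and symbols) on the 12 arrays (x axis), in the order SSC, CSP, Thy and -JUN before JUN; lines only join arrays of one population. The 3 lower traces dip together in SSC JUN replicate 1 and Thy JUN replicate 1, down to 9.44, while the trace of the probe set used stays between 13.73 and 14.57.

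The rest of the pathway was read from 7 lists of genes around the members. No gene of any list passed the threshold in any comparison of populations or of JUN (limma, adjusted over 12516 genes); at an unadjusted p under 0.05 between SSC and Thy, it was 2 of 8 genes of binding protein proteases and their inhibitors, 3 of 10 receptors and adaptors, 3 of 16 genes of PI3K, AKT, mTOR and FOXO, 3 of 8 of the growth hormone axis, 1 of 2 Igf2 RNA-binding proteins, 1 of 11 imprinted growth genes and 0 of 1 among the insulin and carrier genes, against 17.7% of all genes. Closest to the threshold was Htra3, a secreted serine protease, which like Igfbp5 read highest in Thy: SSC minus Thy was -1.09 ± 0.22 (limma adjusted p = 0.0622) and CSP minus Thy -0.89 ± 0.22 (adjusted p = 0.109). Pappa, the protease that cuts IGFBP4, averaged 8.93 in SSC, 8.97 in CSP and 7.93 in Thy (adjusted p = 0.199 for SSC and 0.271 for CSP against Thy).

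Downstream of the receptors, Sos1, which activates RAS, differed between SSC and Thy by -0.81 ± 0.23 (limma adjusted p = 0.136), the adaptor Sh2b1 by -0.74 ± 0.22 (0.151), Tsc2, a brake on mTOR complex 1, by -0.74 ± 0.22 (0.155) and Pik3r2, a regulatory subunit of PI3K, by -0.79 ± 0.27 (0.185). In the growth hormone axis Stat5b, which carries growth hormone signals to Igf1, differed by -0.63 ± 0.21 (0.170) and the inhibitor Socs1 by -0.87 ± 0.30 (0.182). Among the imprinted genes, Airn, the antisense RNA of the Igf2r locus, differed between SSC and Thy by 0.69 ± 0.21 (0.159), while Igf2r itself differed by -0.36 ± 0.25 (0.453). Igf2bp1, which binds Igf2 RNA, differed by -0.70 ± 0.27 (0.225).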

How the data were processed

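Total RNA of each sorted sample was hybridised to 1 microarray. Per the submitters' processing notes, the deposited log2 values were made by the authors with RMA, which subtracts background, normalises all arrays to a common distribution and summarises probes; the sources used here give no software, version or settings. RMA compresses differences of dim probe sets and hides changes of total RNA. Of 45101 probe sets, 64 controls, 932 with several gene symbols and 9160 with none were left out of naming. A probe set was kept when above its array's median on at least 2 arrays, and the brightest per gene was used. Tests were limma 3.58.1 in R 4.3.3 (lmFit, eBayes, two-sided), Benjamini-Hochberg over 12516 genes, threshold 0.05. Populations were fitted with arm as covariate (8 residual degrees of freedom) and JUN on 6 group means (6). Single probe sets were fitted together (23034). The scripts were tested on simulated data. The members, gene lists and tests were chosen with earlier results of these data known. All members are named, the 3 genes most correlated with the 2 members of widest population range, and up to 2 genes per pathway list by lowest p in any population comparison. Replicate numbers name different mice in the 2 arms, so they do not pair JUN with -JUN arrays. Arrays of the same mouse number had residual correlations of -0.333 to 0.406 over 10 pairs. Alternatives covered the probe set, the filter, scaling, blocks, and each array or mouse left out. Array number limits precision.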

Additional observations from a re-analysis of the deposited data

Results flagged for a closer look

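Among 30 sets of 4 arrays (10 genes in 3 populations), 3 had 1 array far from the others by Dixon's criterion, which chance meets in about 1 in 20 sets. Igf2 read 15.33 in CSP -JUN replicate 1 against 15.09 to 15.13 in the other CSP arrays. Igfbp5 read 14.19 in the same array against 13.85 to 13.87. Igfbp3 read 11.63 in Thy JUN replicate 1 against 12.78 to 12.93 in the other Thy arrays.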

How the results depend on the processing

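The number of members past the threshold was 0 with every other choice of probe set, filter, scaling, replicate block and moderation that was run, in all 8 tests. Leaving out 1 array at a time it ranged from 0 to 1 for SSC minus Thy (Igfbp5, without SSC JUN replicate 1, the only SSC array without a date). With the mouse as a fixed replicate block, 8 genes passed for SSC minus CSP, 4 for SSC minus Thy and 125 for CSP minus Thy, against 54, 49 and 124 without it, and members were 0 in each; Igfbp6 then gave -0.80 for SSC minus Thy (limma adjusted p = 0.307) and -0.82 for CSP minus Thy (0.145). Of the member differences rerun under these alternatives, 3 turned: Igf1r gave -0.34 for SSC minus Thy and 0.30 for JUN on average with another probe set, and Igf1 gave 0.0069 for JUN on average without mouse 3, the mouse that differs in sex. Of the values given beside them, other probe sets turned Igf1r under JUN in SSC and Thy, Igfbp3 under JUN in Thy, Igfbp4 for CSP minus Thy and Igfbp7 for SSC minus Thy. They also turned Igf2r under JUN in SSC and Igfbp7 under JUN in CSP. Further turns were those of Igf1r for SSC minus CSP and of Igfbp7 for SSC minus CSP and CSP minus Thy. The cause was not tested. Other filters and scalings moved the count of all genes past the threshold for SSC minus Thy between 24 (no filter) and 84 (above the array median on all arrays of a population). The alternatives for the other Igf1 probe sets were chosen after seeing the data. With 2 arrays a group, no difference seen is not a difference absent.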
